A study of Penicillium oxalicum with 6 samples.

Results

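The genes described here are *PoxAmyR* (*POX_f08097*), which encodes the transcription activator of amylase genes in *Penicillium oxalicum*, and 6 more genes. All but 1 of the 6 are assigned to starch-degrading enzymes. The 7 genes were taken by gene ID from 11159 rows per library, and all were present and passed the filter on low values. The 6 are the glucoamylase gene *POX_b02418*, the α-amylase gene *POX_b03245*, the α-glucosidase genes *POX_e06687* and *POX_f08248*, *PoxAA13* (*POX_g09282*) for a lytic polysaccharide monooxygenase, and *POX_b03346*, for which no function is given. *PoxAmyR* was chosen by the genotype of the strain. The rest were chosen by readout, since the study showed them as genes whose mRNA differed in the same libraries. Their differences between strains are therefore given as a description, without a test.

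Mycelia of 2 strains were compared by RNA-seq of poly(A) RNA. TE4-10 is labelled WT, but by the study's text it is a product of repeated random mutagenesis of a strain that lacks *PoxKu70* and overexpresses the glucoamylase gene *PoxGA15A* from a cellulose-inducible promoter. GXUR001 was made from TE4-10 by deleting *PoxCxrC*, a repressor gene, and overexpressing *PoxAmyR*, so both changes and the background of TE4-10 are present together in it. Spores were grown in glucose and the mycelia moved for 24 h to an inducing medium, which the labels describe as raw starch alone and the study's text as wheat bran plus Avicel, a microcrystalline cellulose. Of the 3 labelled replicates per strain, all were used for GXUR001 (n = 3), and the first and the last for TE4-10 (n = 2). TE4-10 replicate 2 was not analysed here. Because the deletion and the overexpression occur in the same strain, their effects cannot be told apart. The promoter of the added *PoxAmyR* copy is not given in the study's text, and its reads count together with those of the native gene. No value is given for *PoxCxrC*, *PoxGA15A* or *PoxAmy13A*, whose gene IDs were not found in the sources used.

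In starch breakdown by filamentous fungi, α-amylase cuts bonds inside the chains and glucoamylase releases glucose from the chain ends. α-Glucosidase releases glucose from maltose and other short products, and monooxygenases of family AA13 cut chains of insoluble starch by oxidation. AmyR, a zinc cluster activator first studied in *Aspergillus*, switches on genes of these enzymes when starch or its breakdown products are present.

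The values are FPKM, that is fragments scaled to the length of the gene and to all mapped fragments of the library, so that levels of different genes can be compared. The study's text gives a total of clean reads per sample, but the files hold no read counts, so the reads behind each value are not known. The FPKM total of a library ran from 1218691 to 1295493. The median row lay at 23.0 and 23.8 FPKM for TE4-10 but at 17.6 to 20.1 FPKM for GXUR001. Values were therefore also divided by a library factor, the median ratio of a library to the geometric mean of the 5 libraries, which was 1.15 and 1.10 in TE4-10 and 0.879 to 0.996 in GXUR001. This moved the median log2 fold change of the 9636 genes tested from -0.26 to 0.00, and fold changes called rescaled are relative to that median. Ratios of genes within a library, used below, do not depend on the factor.

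*PoxAmyR* was at 62.8 and 66.7 FPKM in TE4-10 and at 90.6, 84.1 and 74.3 FPKM in GXUR001 as deposited. Every GXUR001 library lay above both TE4-10 libraries, and the highest GXUR001 library was 1.22 times the lowest. After rescaling, TE4-10 had a transcription level of 57.5 ± 4.10 FPKM (SD, n = 2) and GXUR001 one of 89.6 ± 14.3 FPKM (SD, n = 3), an increase of 56.0%. The rise was 0.62 on the log2 scale, with a standard error of 0.16 and an adjusted p of 0.049 in a limma test of log2(rescaled FPKM + 1) with Benjamini-Hochberg adjustment over all genes tested. In that test 9.74% of all genes were called higher in GXUR001 at an adjusted p under 0.05. The call was near the threshold. In the FPKM as deposited the log2 fold change was 0.35 with an adjusted p of 0.079 from limma, and the adjusted p ran from 0.034 to 0.19 over all alternatives. It was lost when TE4-10 replicate 1, TE4-10 replicate 3, GXUR001 replicate 1 or GXUR001 replicate 2 was left out, with adjusted p-values from limma of 0.16, 0.089, 0.11 and 0.17.

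The glucoamylase gene *POX_b02418* differed least between the strains of the 7 in the FPKM as deposited. It had 238 and 242 FPKM in TE4-10 and 248, 255 and 256 FPKM in GXUR001. The strains did not overlap, but the GXUR001 mean was just 5.47% above that of TE4-10. After rescaling, TE4-10 had 213 ± 8.91 FPKM (SD, n = 2) against 272 ± 13.1 FPKM (SD, n = 3) for GXUR001, and the log2 fold change was 0.35 with a standard error of 0.09. The size of its difference in these libraries thus depended mainly on the scaling, which took the log2 fold change from 0.08 to 0.35. By RT-qPCR, with actin as the reference, the study reports this gene as higher in GXUR001 at all times tested.

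The α-amylase gene *POX_b03245* was lower in GXUR001. It had 418 and 370 FPKM in TE4-10 and 267, 263 and 256 FPKM in GXUR001 as deposited, and the coefficient of variation of the GXUR001 values was 2.18%. After rescaling, 349 ± 20.1 FPKM (SD, n = 2) stood against 282 ± 23.7 FPKM (SD, n = 3). The log2 fold change was -0.31, and its standard error 0.11.

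Both α-glucosidase genes were lower in GXUR001, but with very different spreads. *POX_e06687* had 31.1 and 34.6 FPKM in TE4-10 and 12.1, 14.0 and 14.4 FPKM in GXUR001. Its rescaled log2 fold change was -0.96 (standard error 0.11), with rescaled means of 29.2 and 14.5 FPKM. *POX_f08248*, the more abundant of the pair, had 114 and 158 FPKM in TE4-10 and 74.2, 85.0 and 101 FPKM in GXUR001. The 2 TE4-10 libraries differed 1.39-fold from each other, about as much as the GXUR001 libraries did among themselves (1.36-fold). After rescaling, GXUR001 replicate 3 (101 FPKM) was above TE4-10 replicate 1 (99.3 FPKM). Its log2 fold change of -0.37 had a standard error of 0.18. Without TE4-10 replicate 3 it was -0.11, and without TE4-10 replicate 1 it was -0.63.

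*PoxAA13* was the gene of the set with the largest difference. It had 27.3 and 36.3 FPKM in TE4-10 and 95.9, 101 and 113 FPKM in GXUR001 as deposited. In TE4-10 it was at percentile 53.3 and 60.6 of all rows, and in GXUR001 at percentile 84.0 to 84.9. After rescaling, 28.3 ± 6.49 FPKM (SD, n = 2) in TE4-10 stood against 111 ± 2.60 FPKM (SD, n = 3) in GXUR001, 3.92 times the TE4-10 mean. The log2 fold change was 1.95, and its standard error 0.15. The rescaled GXUR001 values of 109, 110 and 114 FPKM had a coefficient of variation of 2.34%, the lowest of the set on this scale.

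*POX_b03346*, listed by the study as a hypothetical protein with no enzyme family, was the most abundant of the 7 in every library. It had 901 and 776 FPKM in TE4-10 and 477, 477 and 460 FPKM in GXUR001 as deposited, and its rescaled log2 fold change was -0.55 (standard error 0.12). It was at percentile 97.7 to 97.9 of all rows in TE4-10 and 96.0 to 96.6 in GXUR001.

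Over the set, 3 genes lay higher in every GXUR001 library as deposited and 4 lower. Among all genes tested these shares were 12.6% and 46.9%. After rescaling, 3 were higher, 3 lower and 1 (*POX_f08248*) overlapped, against 26.7% of all genes higher and 26.5% lower. The median rescaled log2 fold change was -0.31 over the 7 genes and 0.00 over all genes tested. All but *PoxAmyR* were picked for their difference, so nothing is read from these counts.

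**Figure D1:**
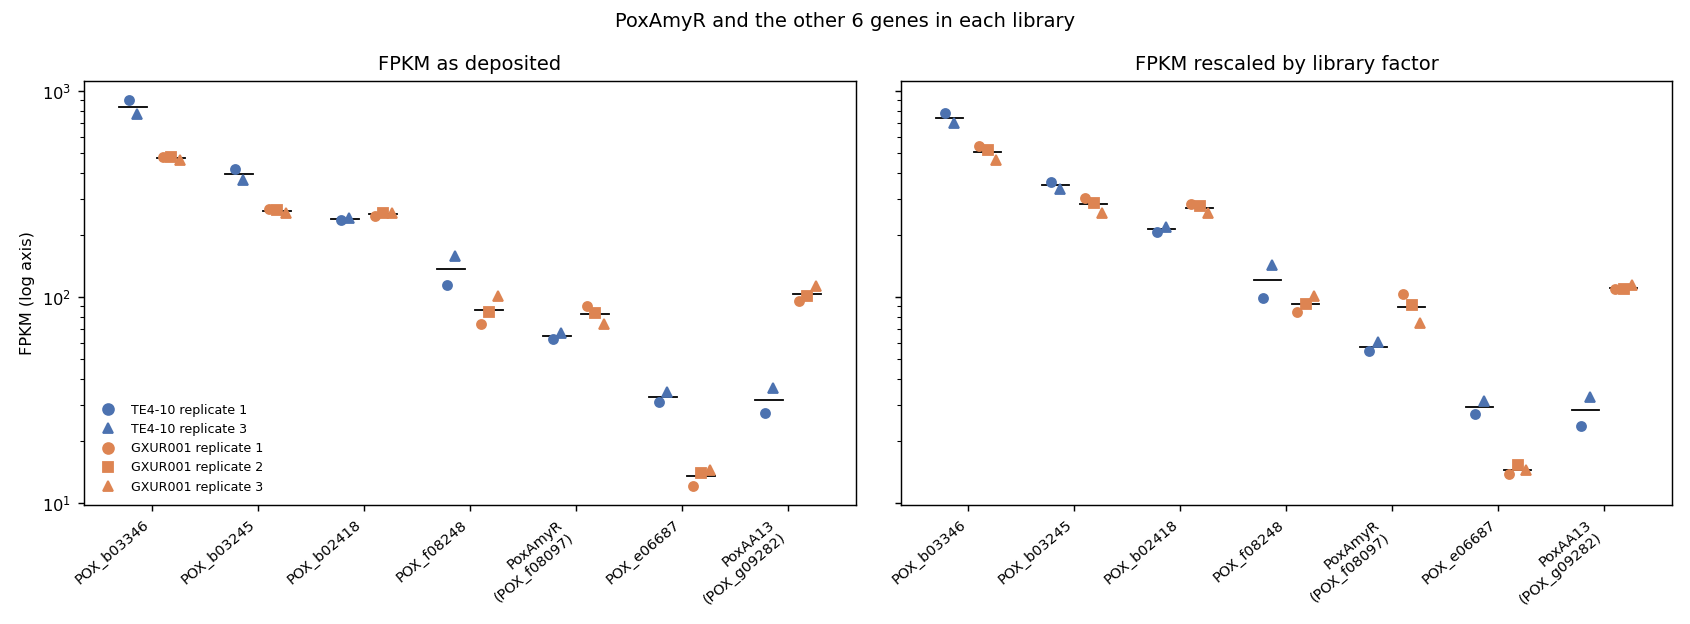
FPKM of each gene in each library on a log axis, as deposited (left) and divided by the library factor (right), with TE4-10 in blue, GXUR001 in orange and black lines for strain means. *PoxAA13* moved from 27.3 and 36.3 FPKM to 95.9 to 113 FPKM, whereas *POX_b02418* stayed between 238 and 256 FPKM as deposited.

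The order of the levels differed between the strains. In both TE4-10 libraries *POX_b03346* was followed by *POX_b03245*, *POX_b02418*, *POX_f08248* and *PoxAmyR*. *POX_e06687* and *PoxAA13* were lowest and changed places between the TE4-10 libraries, with ratios of 1.14 and 0.954, so their order is not resolved there. In GXUR001 *POX_e06687* alone was lowest, and *PoxAA13* was above both *PoxAmyR* and *POX_f08248* in every library. These 2 pairs were the ones of 21 whose order was reversed in every library. Both contain *PoxAA13*, which was picked for its difference, and the share over all pairs of genes was not computed. Nothing is therefore read from this count. *PoxAmyR* and *POX_f08248* changed places among the GXUR001 libraries, with ratios of 1.22, 0.989 and 0.737, and are not separated in that strain. The same holds for the glucoamylase and the α-amylase gene in GXUR001.

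The balance of the enzyme genes of this set was followed through the ratios of gene pairs within each library. *PoxGA15A* and *PoxAmy13A*, key amylase genes that the study reports as higher in GXUR001, are not part of the set. The ratio of the glucoamylase gene *POX_b02418*, for the enzyme acting on chain ends, to the α-amylase gene *POX_b03245*, for the enzyme acting inside chains, was 0.569 and 0.654 in TE4-10. In GXUR001 it was 0.926, 0.970 and 1.00, so the transcript levels of these 2 genes were nearly equal. The mean ratio went from 0.612 ± 0.0607 (SD, n = 2) to 0.966 ± 0.0372 (SD, n = 3). *POX_b02418* had 8.72 and 6.67 times the level of *PoxAA13* in TE4-10, and 2.58, 2.53 and 2.26 times its level in GXUR001. Of the α-glucosidase genes, *POX_f08248* was 3.67 and 4.57 times the level of *POX_e06687* in TE4-10 and 6.12, 6.07 and 6.99 times in GXUR001. The 2 genes of the same enzyme class thus stood further apart in GXUR001.

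Of the 21 pairs, 19 had ratios that did not overlap between the strains, where 53.2% of all pairs of tested genes with a value above 0 in every library did not. The pairs share genes and are not independent. All genes of the set but *PoxAmyR* were picked for their difference, so nothing is read from this count. The exceptions were *POX_b03245* to *POX_f08248*, with ratios of 3.66 and 2.34 in TE4-10 and 2.54 to 3.60 in GXUR001, and *POX_f08248* to *POX_b03346*. The ratio with the smallest relative spread within each strain was that of *POX_b03245* to *POX_b03346*, at 0.464 and 0.477 in TE4-10 and 0.552 to 0.560 in GXUR001. The difference of the mean log2 ratio between strains was 0.24 for this pair. It was largest for *PoxAA13* with *POX_e06687*, at 3.00 with *PoxAA13* above the line.

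**Figure D2:**
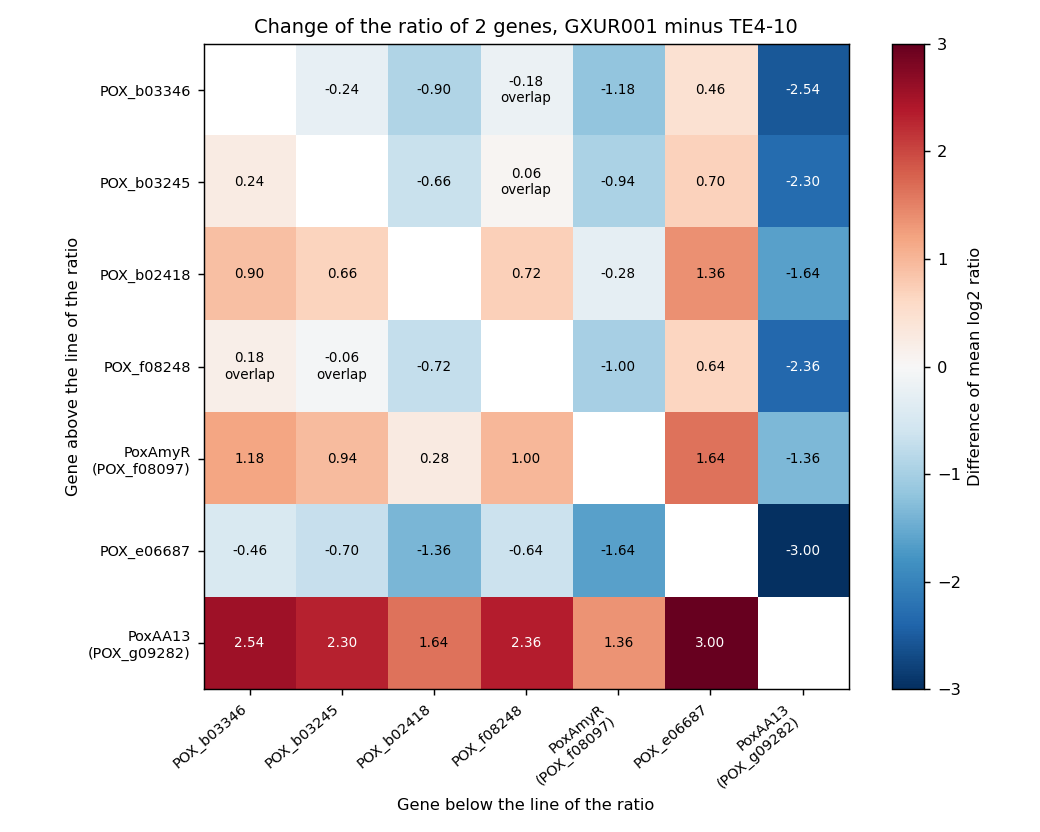
Difference between the strains (GXUR001 minus TE4-10) of the mean log2 ratio of each gene in the rows to each gene in the columns, red where the ratio was higher in GXUR001 and blue where it was lower. The *PoxAA13* row is red throughout, from 1.36 against *PoxAmyR* to 3.00 against *POX_e06687*, and the 2 pairs whose libraries overlapped are marked.

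By the study, *PoxAmyR* stimulates transcription of the key amylase genes *PoxGA15A* and *PoxAmy13A*, which are not in this set. Each of the 6 other genes was also set against *PoxAmyR* in the same library. Whether *PoxAmyR* controls any of them was not tested. *PoxAA13* was the gene of the 6 with a higher ratio in GXUR001. It was at 0.434 and 0.545 of the *PoxAmyR* level in TE4-10 and at 1.06, 1.20 and 1.53 times that level in GXUR001. The other 5 had lower ratios in every GXUR001 library than in both TE4-10 libraries. Among 9333 genes with a value above 0 in every library, 4.33% had a higher and 64.1% a lower ratio to *PoxAmyR* by the same rule, as *PoxAmyR* itself was higher in GXUR001. The median difference of the log2 ratio was -0.97 over the 6 genes and -0.63 over all these genes. The 6 were picked for their difference between the same strains, so nothing is read from these counts and medians.

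For the glucoamylase gene *POX_b02418* the ratio to *PoxAmyR* was 3.79 and 3.63 in the TE4-10 libraries, against 2.73, 3.04 and 3.45 in those of GXUR001. Its difference of the log2 ratio was -0.28. *POX_b03245* had 6.66 and 5.55 times the *PoxAmyR* level in TE4-10 and 2.95, 3.13 and 3.45 times in GXUR001. For *POX_b03346* the ratio was 14.4 and 11.6 in the TE4-10 libraries, against 5.27, 5.67 and 6.20 in those of GXUR001. These 2 genes had differences of the log2 ratio of -0.94 and -1.18.

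The ratio of *POX_e06687* to *PoxAmyR* was 0.496 and 0.520 in the TE4-10 libraries, against 0.134, 0.167 and 0.194 in those of GXUR001, 3.08 times lower on average. That of *POX_f08248* was 1.82 and 2.37 in the TE4-10 libraries, against 0.819, 1.01 and 1.36 in those of GXUR001. Its strains, which overlapped in the rescaled FPKM, did not overlap in this ratio, whose denominator was itself higher in GXUR001.

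Within GXUR001, replicate 1 had the highest *PoxAmyR* level and the lowest ratio to *PoxAmyR* for all 6 other genes, and replicate 3 had the lowest *PoxAmyR* level and the highest ratio for all 6. The ratios share the *PoxAmyR* value as their denominator. The levels themselves were mixed after rescaling. *PoxAA13*, *POX_f08248* and *POX_e06687* were lowest in replicate 1 (109, 84.4 and 13.8 FPKM). *POX_b02418*, *POX_b03245* and *POX_b03346* were highest there (282, 304 and 543 FPKM). As deposited, however, *POX_b02418* was lowest in replicate 1 (248 FPKM), so its place depended on the scaling.

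**Figure D3:**
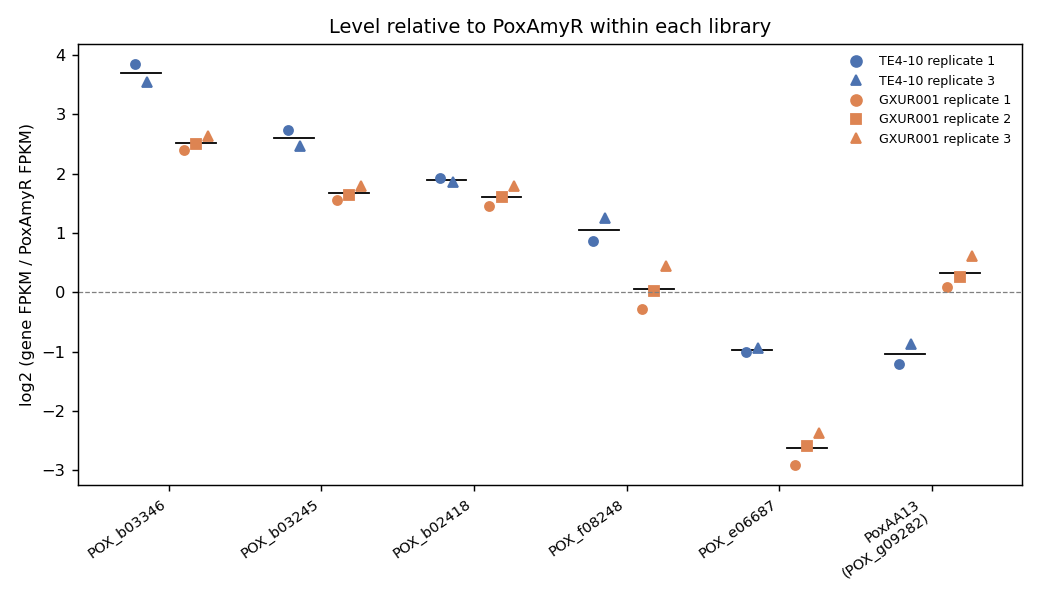
Log2 of the ratio of each gene's FPKM to that of *PoxAmyR* in each library (blue TE4-10, orange GXUR001, black lines strain means, dashed line equal levels). *PoxAA13* crossed the line of equal levels, from ratios of 0.434 and 0.545 to 1.06 to 1.53, and the other 5 genes were lower in GXUR001.

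The actin gene *POX_c04656*, the reference of the study's RT-qPCR, gave another scale within each library. Actin had 2038 and 2305 FPKM in TE4-10 and 1751, 1687 and 1650 FPKM in GXUR001 as deposited. Rescaled levels of actin were 1930 ± 223 FPKM (SD, n = 2) and 1827 ± 168 FPKM (SD, n = 3) and overlapped. The log2 fold change of actin was -0.08 with a standard error of 0.14, and limma gave an adjusted p of 0.72. Relative to actin, *PoxAmyR* was 1.64 times as high in GXUR001 on average, the glucoamylase gene *POX_b02418* 1.35 times and *PoxAA13* 4.20 times. *POX_b03346*, *POX_b03245* and *POX_e06687* were at 0.714, 0.846 and 0.527 of their TE4-10 ratio to actin. The strains of *POX_f08248* overlapped relative to actin.

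**Figure D4:**
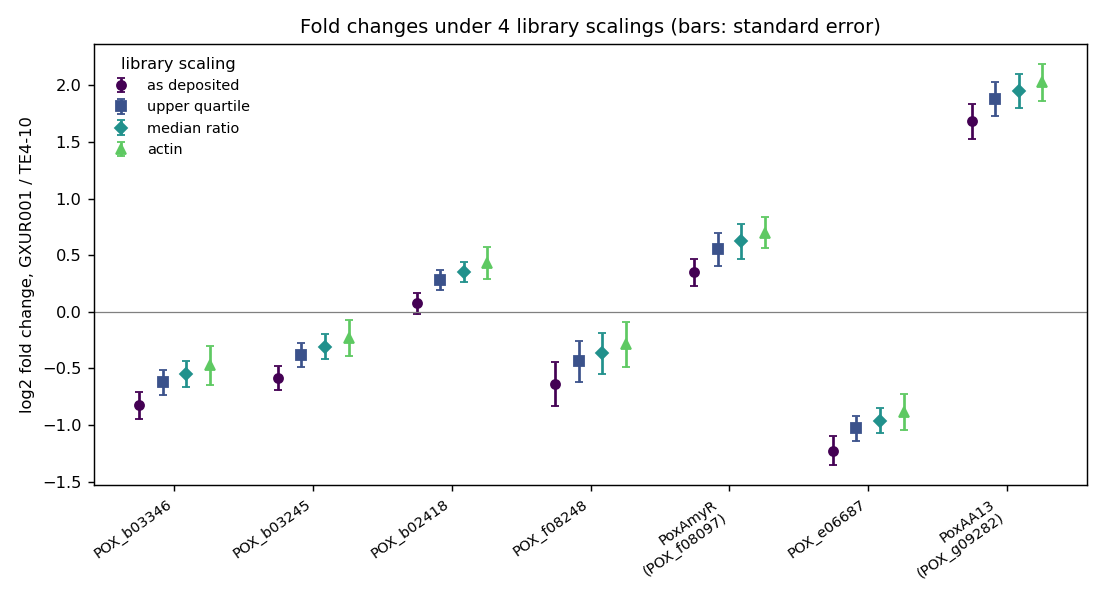
Log2 fold change of each gene (points) with its standard error (bars) under each library scaling, namely FPKM as deposited, upper quartile, median ratio (called rescaled in the text) and actin. No gene changed sign, and *POX_b02418* ran from 0.08 as deposited to 0.43 with actin.

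The FPKM values of the 7 genes summed to 1792 and 1684 in TE4-10 and to 1264, 1280 and 1275 in GXUR001 as deposited. After rescaling the sums were 1558 and 1525 against 1439, 1389 and 1280, so that the mean sum in GXUR001 was 0.888 of that in TE4-10, against 0.732 as deposited. The sums rested largely on *POX_b03346*. Without that gene the rescaled sums were 775 and 822 in TE4-10 and 896, 872 and 818 in GXUR001, which overlapped, and the mean sum was 1.08 times that of TE4-10. As deposited, without that gene, it was 0.891 of it, so the direction of this sum depended on the scaling.

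Within the total, *POX_b03346* took 50.3% and 46.1% in TE4-10 and 37.7%, 37.3% and 36.1% in GXUR001. The share of the glucoamylase gene *POX_b02418* was 13.3% and 14.4% in TE4-10, against 19.6%, 20.0% and 20.1% in GXUR001. *PoxAA13* took 1.52% and 2.16% in TE4-10 and 7.59%, 7.89% and 8.90% in GXUR001. *PoxAmyR* itself took 3.50% and 3.96%, then 7.16%, 6.57% and 5.82%. These 3 genes took more of the total in every GXUR001 library.

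The α-amylase gene *POX_b03245*, whose FPKM was also lower, took a slightly smaller share, with 23.3% and 22.0% in TE4-10 and 21.1%, 20.6% and 20.1% in GXUR001. *POX_e06687* had 1.74% and 2.06% in TE4-10 and 0.958%, 1.09% and 1.13% in GXUR001. The shares of *POX_f08248* overlapped, at 6.37% and 9.40% in TE4-10 and 5.87% to 7.91% in GXUR001. Shares of a fixed total are tied to each other, and a lower share of *POX_b03346* raises the rest. With *POX_b03346* left out, the share of *POX_b03245* was 46.9% and 40.7% in TE4-10, against 33.9%, 32.8% and 31.4% for GXUR001.

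**Figure D5:**
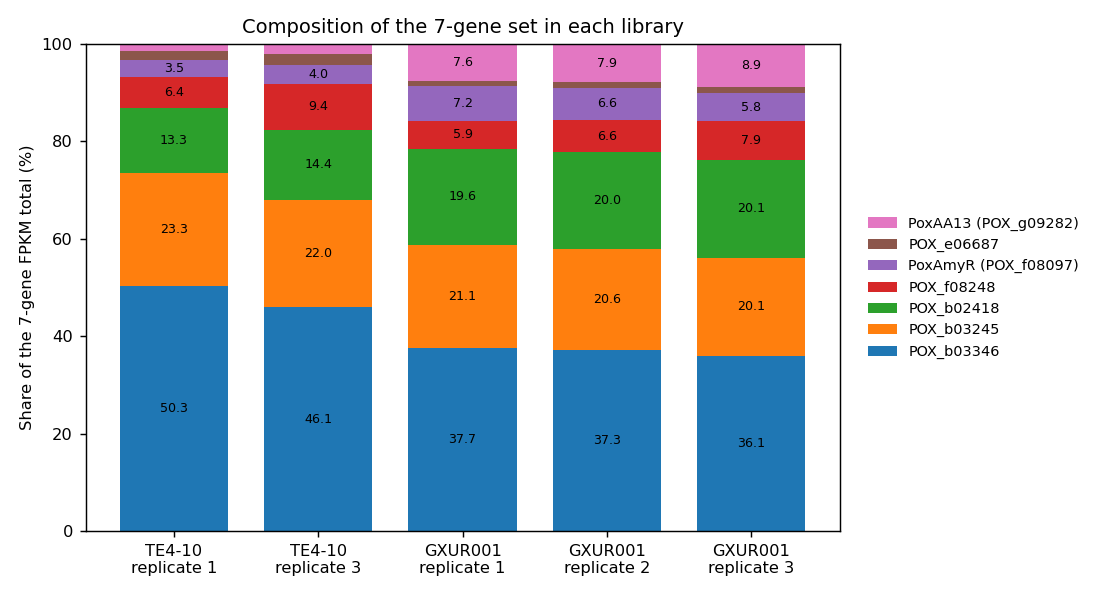
Share of each gene in the FPKM total of the 7 genes, 1 bar per library, in percent. The share of *POX_b03346* went from 50.3% and 46.1% in TE4-10 to 36.1% to 37.7% in GXUR001, and that of *PoxAA13* from 1.52% and 2.16% to 7.59% to 8.90%.

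The 3 genes whose profile over the 5 libraries was most like that of *PoxAmyR* were found by the root mean square difference of log2(rescaled FPKM + 1), after subtracting each gene's mean, among 6774 genes with a mean of at least 10 FPKM in both strains. They were *POX_c03776* (difference of 0.023), *POX_e06562* (0.037) and *POX_f08123* (0.037). These are the closest of many genes over 5 libraries, and whether they share control with *PoxAmyR* was not tested. *POX_c03776* also had nearly the same levels, with 62.7 and 68.1 FPKM in TE4-10 and 94.5, 84.4 and 74.6 FPKM in GXUR001. The glucoamylase gene *POX_b02418* was number 329 in this order (difference of 0.17), and the other genes of the set came from number 4839 (*POX_b03245*) to 6565 (*POX_e06687*). *PoxAA13* was number 6362, as it differed far more between strains than *PoxAmyR* did.

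The genes of the set do not lie next to each other. By the order of genes in the reference table (assembly ASM172317v3), 148 genes lie between *PoxAmyR* and *POX_f08248*, 98 between *POX_b03245* and *POX_b03346*, and 826 between *POX_b02418* and *POX_b03245*.

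Among the rows at hand of the study's table of changed genes, whose IDs begin with *POX_a* to *POX_d*, 4 more genes carry the families GH13, GH15, GH31 or CBM20, to which amylases, glucoamylases, α-glucosidases and starch-binding modules belong. They were listed there because they differed in these libraries, so they are described without a test. The putative α-amylase gene *POX_b03390* had 38.2 and 52.5 FPKM in TE4-10 and 23.7, 27.1 and 33.7 FPKM in GXUR001. Its rescaled log2 fold change was -0.40 (standard error 0.18), and its rescaled values overlapped. *POX_d05005*, a GH15 gene with no named function, was higher in GXUR001, with 151 and 167 FPKM in TE4-10 and 208, 193 and 176 FPKM in GXUR001. *POX_d05838*, a putative α-xylosidase gene, and *POX_a00485*, for a subunit of the glucosidase that trims sugar chains of new proteins, had rescaled log2 fold changes of -0.48 and -0.28 (standard errors 0.15 and 0.09). *POX_d05520*, for a 1,4-α-glucan-branching enzyme of glycogen synthesis, is not among the rows of that table at hand but was shown by the study with the enzyme genes, and was added here after its values were seen. It had 124 and 146 FPKM in TE4-10 and 64.0, 70.8 and 87.2 FPKM in GXUR001, with no overlap, and its rescaled log2 fold change was -0.59 with a standard error of 0.13.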

How the data were processed

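Poly(A) RNA was sequenced from mycelia of both strains, and samples were assigned to strains by their labels. The authors deposited FPKM values in 1 file per library. HISAT2 and bcl2fastq are named in the submitters' processing notes, and by the paper reads were matched to the genome of *P. oxalicum* HP7-1. The counting tool and the handling of strand are not given in the sources used here, and of 11159 rows 1337 lie outside the annotation.

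Because FPKM are normalized, count models were not applied. The 9636 rows whose mean FPKM reached 1 were tested on log2(rescaled FPKM + 1) with limma 3.58.1 in R 4.3.3 (lmFit, eBayes with a trend, 3 residual and 2.45 prior degrees of freedom), with Benjamini-Hochberg adjustment over all rows tested and calls at an adjusted p under 0.05. With 2 libraries against 3, the smallest one-sided p of an exact permutation test is 0.1, so none was run. Ratios and shares were taken within libraries from deposited FPKM without a pseudocount, in Python 3.11.15. P-values weigh the difference between strains against the spread between libraries of a strain. That spread is estimated in part from all rows tested.

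The 7 genes and all lists were chosen with earlier results of these data known. Named genes were the 7, actin, the called genes of a list of other starch and maltose genes, and the 3 profiles nearest to *PoxAmyR*. That list and a list of spore markers were to come from product names, which the gene table used here does not carry, so they were not analysed here. Whether the samples hold spores beside mycelium was not tested.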

Additional observations from a re-analysis of the deposited data

How the results depend on the processing

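The alternatives were another library scaling, eBayes without a trend, a pseudocount of 0.1, a filter at 10 FPKM or none, other thresholds, a block for the replicate number, and each library left out. Testing annotated genes only was added after seeing the data. For the changes below the cause was not tested. The 1718 calls became 2661 with FPKM as deposited (17.4% higher in GXUR001, against 54.7%), 785 with actin scaling (75.4% higher), 3436 at an unadjusted p under 0.05 and 476 when a log2 fold change of 1 in either direction was also required. Upper quartile scaling gave 41.8% higher. Leaving out single libraries gave 17 (without GXUR001 replicate 2, where 2299 had an unadjusted p under 0.05) to 1836 calls, with 1083 without TE4-10 replicate 1, and 539 and 549 without GXUR001 replicates 1 and 3. With the replicate block 0 were called by limma, while 2476 had an unadjusted p under 0.05. The strains share only numbers 1 and 3, and the numbers were not taken as pairs. Deviations from the strain means correlated by -0.01 and 0.04 between libraries of the same number. With 2 TE4-10 libraries the deviations of that strain mirror each other, so these values cannot decide whether the numbers are pairs.

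The log2 fold change of *PoxAmyR* stayed positive throughout, but lost the call with FPKM as deposited (0.35), upper quartile scaling (0.55), no filter (0.62), eBayes without a trend (0.62) and the replicate block (0.60), where limma gave an adjusted p of 0.19, the highest of a range that began at 0.034. Leaving out single libraries gave 0.52 to 0.75. Set against actin in place of *PoxAmyR*, 3 of the 6 other genes had a lower ratio in every GXUR001 library. Set against *PoxAmyR* it was 5, where 64.1% of all genes were lower. For the ratio to actin the share over all genes was not computed. With single libraries left out the number lower against *PoxAmyR* stayed at 5. The number of genes with a lower share was then 3 to 4, and the number of separate pairs 19 to 21. The 6 genes were picked for their difference, so nothing is read from these counts. Of 256 values of single genes under the alternatives, 210 lay within 1 SD of the main value. The filter settings and eBayes without a trend cannot change a fold change, so their agreement was fixed in advance. The values also cover genes outside the set, and ratios to actin set against ratios to *PoxAmyR*. Nothing on robustness is therefore read from this count. Leaving out a TE4-10 library leaves 1 in that strain, which is then assumed to vary like the others. The files hold no read counts per gene, so counting error was not separated from the spread between libraries.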
